A study of Mus musculus with 18 samples.

Results

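The 10 genes described here are 4 Notch ligands (Dll1, Dll3, Jag1 and Jag2), 3 Notch receptors (Notch1, Notch2 and Notch3) and 3 transcriptional targets (Hes1, Hey1 and Heyl). They were taken by symbol and make up 10 of the 26157 symbols listed for embryoid bodies (EBs) at day 2 and 10 of the 54114 symbols listed for the later stages. All 10 passed the filter on low counts in every fit. The study asked what forced expression of the homeobox gene Dlx2, known from the pharyngeal arches, does to mouse embryonic stem cells that carry a tdTomato reporter of Msx1, another homeobox gene of craniofacial mesenchyme. RNA sequencing of 14 libraries in 7 groups of 2 was analysed here.

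Day 2 was represented by hanging-drop EBs of a line with inducible Dlx2 and of a control line with inducible GFP, both read as treated with 1 µg/ml doxycycline, because the study's design compares the overexpressing EBs although the column names do not mention the drug. At days 8 and 16, all cells came from the inducible Dlx2 line under doxycycline and were sorted by flow cytometry into Msx1+ and Msx1- fractions, so that both fractions share the Dlx2 transgene and the drug. No sorted GFP or undrugged group was analysed here, and neither were the 4 labelled samples of the uninduced EBs. The remaining group is labelled ES, wild type and untreated, in serum and LIF. The sources do not say whether a line is 1 clone or whether both libraries of a group came from separate cultures. The p-values therefore measure the spread between these libraries, which may be technical. With 2 libraries against 2, an exact permutation test of a single value cannot go below p = 0.333 (two-sided). Adjusted p-values below come from edgeR's quasi-likelihood test, which pools the spread over genes, with Benjamini-Hochberg adjustment over all genes tested, and a gene is called at an adjusted p under 0.05.

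The 4 EB libraries held between 26211608 and 41552818 counts, and the 10 later ones between 53797597 and 107770730. Dlx2 stood at 4344 and 4720 CPM, counts scaled to a common library size, in the Dlx2 EBs and at 0.081 CPM in both GFP EB libraries, 2 counts in each. The libraries labelled ES held 219 and 222 CPM of Dlx2, which goes against a wild-type untreated label. Any direction drawn from them below carries that reservation. Msx1 was at 40.9 and 46.8 CPM in Msx1+ cells of day 8 and at 73.7 and 81.6 CPM in those of day 16, against 0.75 to 1.90 CPM in the 4 Msx1- libraries. The 2 Msx1+ libraries of day 8 had the largest chi-square per gene within a group (20.2, against 4.4 for the GFP EBs). This measure uses raw counts and also grows with depth, so that groups of unlike depth are not ranked by it. Levels of EBs and of the other groups stand in separately normalised tables and were not tested against each other. In these bulk libraries, fewer cells of a type and less RNA per cell cannot be told apart.

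Notch signalling works between touching cells. A ligand of the Delta (Dll) or Jagged (Jag) family on one cell binds a Notch receptor on the next, proteases release the receptor's intracellular part, and this joins the DNA-binding protein RBPJ and Mastermind coactivators (Maml genes) in the nucleus to switch on targets such as the Hes and Hey repressors. Dll3 is an exception, a ligand-like protein that mainly acts inside the cell against signalling. In mesenchyme the pathway is known for holding progenitors undifferentiated, and Jag1 and Notch3 for their roles in the smooth muscle and pericyte lineage. Jag1 is also known for craniofacial development and Jag2 for closure of the palate.

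Promoter windows of 250 bases before the annotated start were taken from RefSeq on GRCm38.p6, where 7 of the 10 genes had an entry, Dll1 with 2 starts, for 8 windows. The windows of Notch2 and Notch3, receptors that were higher in Msx1+ cells at both days, and of Dll1, the ligand that was lower in them at both days, are shown because the 3 genes moved together or apart across the sort. Only the bases outside the exons of each gene in GENCODE vM21 are printed. Capitals mark E-boxes, CANNTG, the kind of site that basic helix-loop-helix proteins bind, in Dll1, and N-boxes, CACNAG or CTNGTG on the other strand, the kind of site that Hes repressors bind, in both receptors.
Dll1, chr17:15376933-15377182, minus strand: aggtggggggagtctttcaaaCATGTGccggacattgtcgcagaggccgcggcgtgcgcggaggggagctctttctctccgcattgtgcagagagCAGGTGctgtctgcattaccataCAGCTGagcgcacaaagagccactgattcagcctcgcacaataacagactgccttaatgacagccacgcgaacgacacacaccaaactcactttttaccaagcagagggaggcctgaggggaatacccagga
Notch2, chr3:98013288-98013526, plus strand: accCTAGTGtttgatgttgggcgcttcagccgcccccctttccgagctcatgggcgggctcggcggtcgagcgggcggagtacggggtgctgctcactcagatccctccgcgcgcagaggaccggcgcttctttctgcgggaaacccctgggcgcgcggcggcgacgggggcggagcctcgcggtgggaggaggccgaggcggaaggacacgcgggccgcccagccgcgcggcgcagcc
Notch3, chr17:32166891-32167140, minus strand: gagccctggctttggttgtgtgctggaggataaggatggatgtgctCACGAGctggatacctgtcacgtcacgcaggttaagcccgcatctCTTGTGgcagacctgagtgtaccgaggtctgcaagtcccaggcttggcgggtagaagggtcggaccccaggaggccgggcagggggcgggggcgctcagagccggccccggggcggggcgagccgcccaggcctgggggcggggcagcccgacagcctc
Dll1 held 3 E-boxes in this window, the nearest at -132 to -127 from the start. The window of its other start, not printed, held an E-box at -220 to -215. For the printed Dll1 start and for Notch3, the sequence checked after the start was found in no GENCODE transcript of the gene. Notch3 held 2 N-boxes and Notch2 held 1. Over both strands and all 8 windows, an N-box was found in 3 (Notch1, Notch2 and Notch3), an E-box in 4 and the homeodomain core TAATT in 1 (Dll3), while the RBPJ core TGGGAA was found in none. In 32851 promoter windows of the same length, these motifs were present in 36.7%, 66.2%, 25.0% and 21.6%, and matches of different motifs may share bases. A match describes the letters only.

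Most of the 10 genes differed between the groups, as did most genes in these data. Between Dlx2 and GFP EBs at day 2, 8 of the 10 were called, 3 higher and 5 lower with Dlx2, where 67.2% of all 18650 genes tested were called, 34.1% higher and 33.0% lower. Between Msx1+ and Msx1- cells, 7 of 10 were called at day 8 (6 higher, 1 lower), beside 54.7% of 22294 genes (30.4% higher, 24.3% lower). At day 16, 9 of 10 were called (7 higher, 2 lower), beside 62.1% (31.1% higher, 31.0% lower). The median log2 change of the 10 was -0.14 at day 2, 0.36 at day 8 and 0.77 at day 16, where the medians over all genes were 0.02, 0.06 and -0.02. When libraries were scaled by their totals without TMM factors, the all-gene median became 0.20 at day 2 and 0.22 at day 8, and the share of higher among called genes went from 50.8% to 63.6% and from 55.6% to 66.8%.

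**Figure D1:**
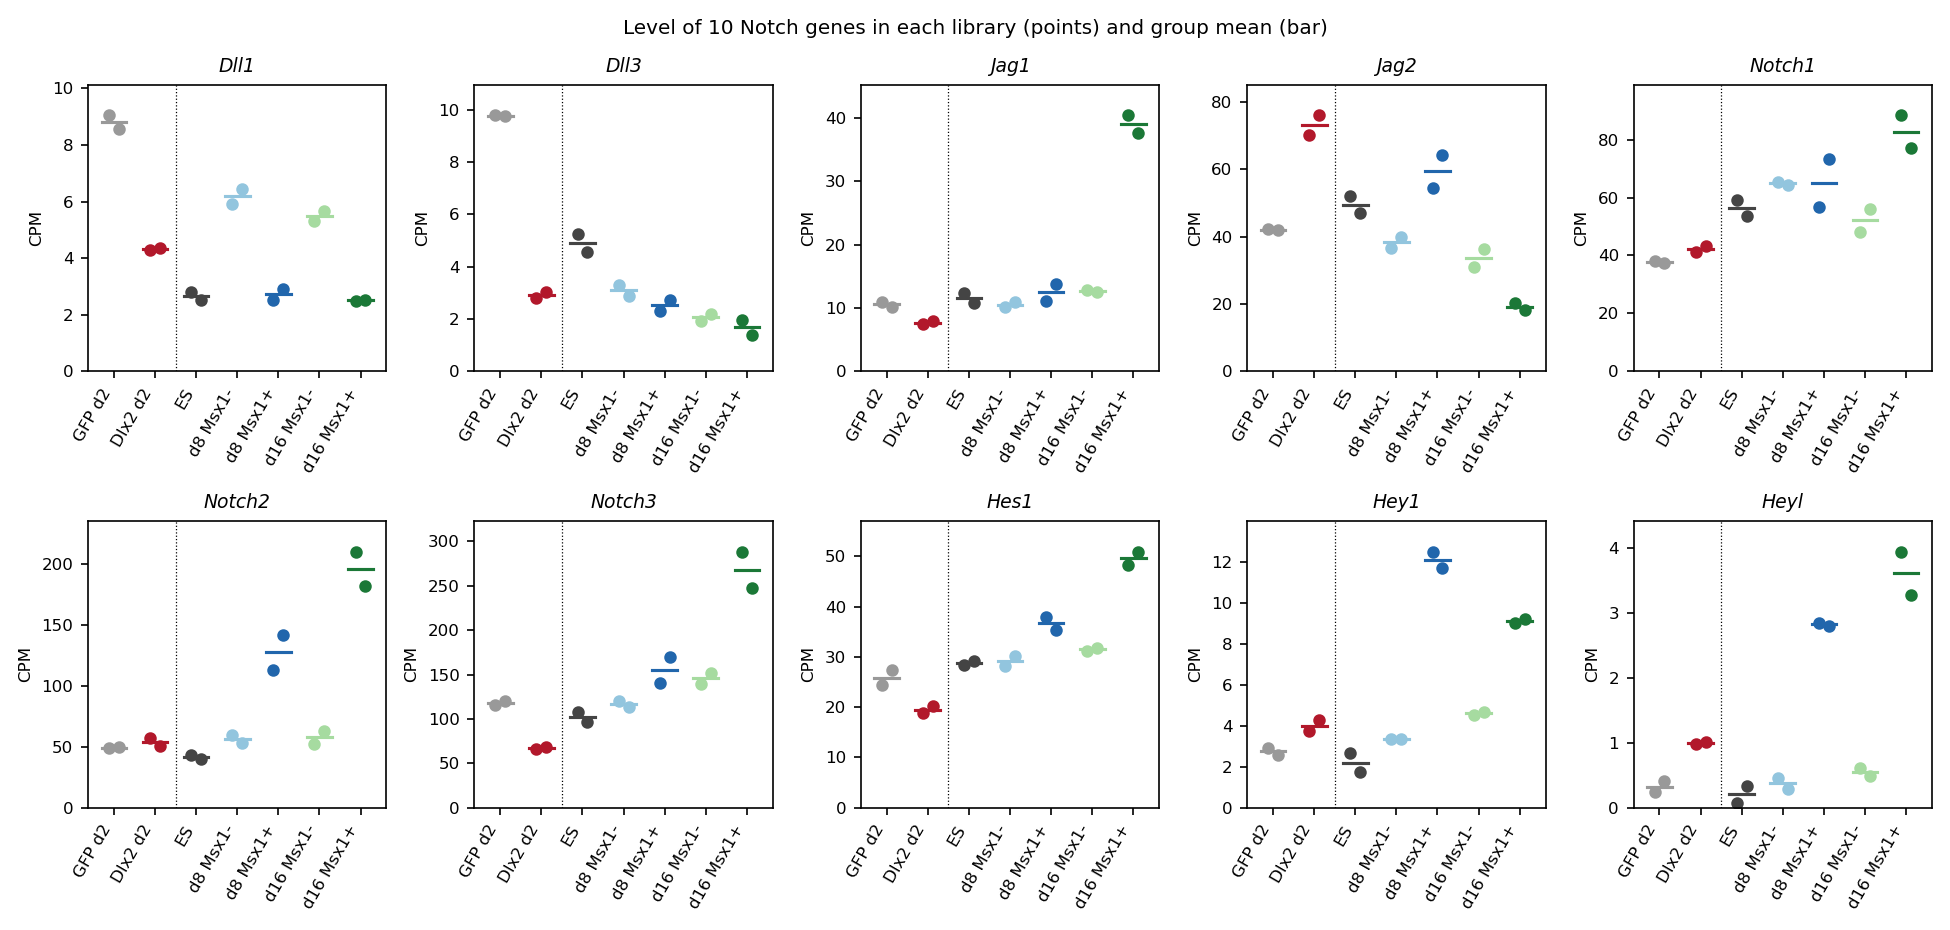
Level of each of the 10 genes in CPM on a linear axis from 0, with a point per library and a bar at the group mean of 2 libraries. The dotted line separates the day-2 table from the other, which were normalised separately. Jag1, Notch2, Notch3 and Hes1 were highest in the Msx1+ cells of day 16, Jag2 and Hey1 in the Msx1+ cells of day 8 among the 5 groups to the right of the line.

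Among the ligands at day 2, the EBs with Dlx2 had more Jag2 and less Dll1, Dll3 and Jag1 than the GFP EBs. Dll3 was at 2.81 and 3.04 CPM with Dlx2 and at 9.78 and 9.74 CPM with GFP, a log2 change of -1.74 ± 0.16 (SE, adjusted p = 1.67e-09). Dll1, the main Delta ligand of early mesoderm and neural tissue, was at 4.29 and 4.37 CPM against 9.05 and 8.56 CPM (log2 change -1.03 ± 0.15, adjusted p = 2.68e-06). Both Delta genes thus lay lower in each Dlx2 library than in either GFP library. Jag1 was at 7.39 and 7.87 CPM against 10.96 and 10.22 CPM, a smaller difference (log2 change -0.47 ± 0.13, adjusted p = 0.00238). Jag2 went the other way, with 70.2 and 76.0 CPM against 42.1 and 41.9 CPM (log2 change 0.80 ± 0.07, adjusted p = 4.42e-10). None of these 4 calls was lost under any alternative setting or with any library left out.

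Levels per kilobase of merged exon compare different genes only roughly, because the merged length takes in the exons of every annotated transcript. On this scale, Jag2 made up 75.5% and 76.0% of the summed level of the 4 ligand genes in the Dlx2 EBs. In the GFP EBs it made up 44.8% and 45.5%. The sum itself was 13.3 and 14.4 CPM per kb with Dlx2 and 13.5 and 13.2 CPM per kb with GFP. The make-up of the ligand transcripts differed, while the sum of all 4 genes overlapped between the groups. That overlap includes Dll3, the exception among the ligands, at 0.986 and 1.07 CPM per kb with Dlx2 and 3.43 and 3.42 with GFP. It therefore does not show an unchanged level of the other ligands together.

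In the sorted cells the Jagged genes changed places. Jag1 was at 10.1 and 10.9 CPM in Msx1- and 11.2 and 13.8 CPM in Msx1+ cells of day 8, and at 12.8 and 12.5 CPM in Msx1- cells of day 16. In Msx1+ cells of day 16 it reached 40.4 and 37.6 CPM, 3.08-fold the level of Msx1- cells of that day (log2 change 1.62 ± 0.11, adjusted p = 4.98e-09). At day 8 the groups did not overlap but the difference was not called (log2 change 0.25, 95% confidence interval 0.02 to 0.49, adjusted p = 0.0619). It was called when Msx1+ replicate 1 of day 8 was left out (0.40, adjusted p = 0.006), under scaling by library size (0.41, adjusted p = 0.00427) and without the filter on low counts (0.27, adjusted p = 0.0272).

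Jag2 was higher in Msx1+ cells at day 8 and lower in them at day 16. It stood at 54.5 and 64.2 CPM in Msx1+ against 36.7 and 39.8 CPM in Msx1- cells of day 8 (log2 change 0.63 ± 0.10, adjusted p = 4.71e-05). At day 16 it stood at 20.2 and 18.2 CPM in Msx1+ against 31.0 and 36.2 CPM in Msx1- cells (log2 change -0.81 ± 0.10, adjusted p = 4.89e-06). The Msx1+ cells thus held both the highest Jag2 level among the sorted groups, at day 8, and the lowest, at day 16. The difference of the Msx1 effects, day 16 minus day 8, was 1.37 ± 0.15 for Jag1 (adjusted p = 9.04e-06) and -1.44 ± 0.14 for Jag2 (adjusted p = 2.17e-06), in a test that called 28.6% of all genes.

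The ratio of Jag1 to Jag2 per kilobase was 2.39 and 2.47 in Msx1+ cells of day 16. In the other 12 libraries it ran from 0.124 in a Dlx2 EB library to 0.491 in an Msx1- library of day 16, so that Jag2 was the more abundant Jagged transcript in each of them. Jag1 made up 62.4% and 63.5% of the ligand sum in Msx1+ cells of day 16, and 17.2% and 17.9% in those of day 8. The ligand sum stayed within 8.58 and 13.2 CPM per kb over the 8 sorted libraries.

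**Figure D2:**
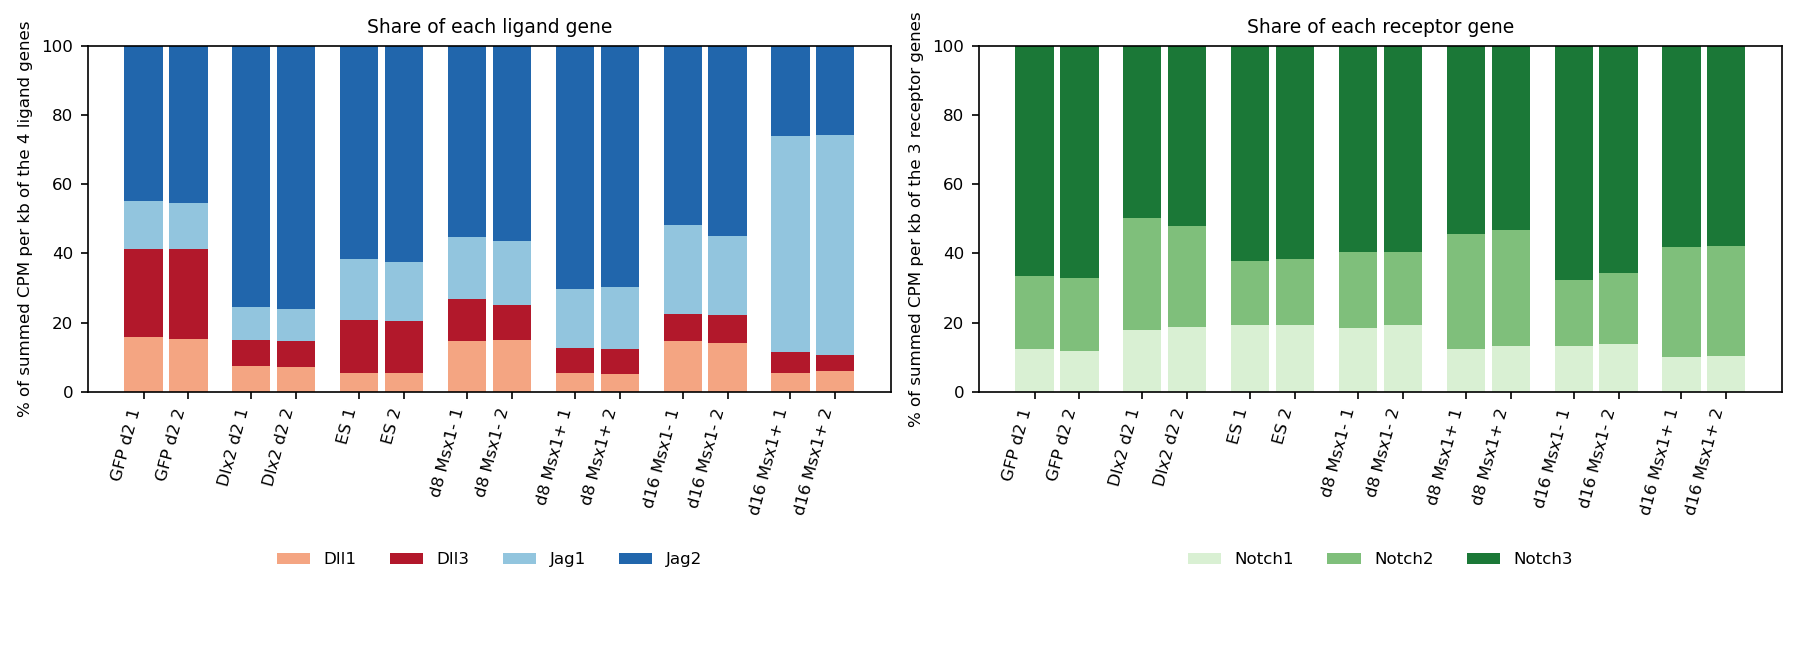
Share of each ligand gene (left) and receptor gene (right) in the summed CPM per kb of its kind, in percent, with a bar per library. Jag2 takes the largest ligand share in every library except both Msx1+ libraries of day 16, where Jag1 takes 62.4% and 63.5%, and Notch3 takes the largest receptor share in all 14 libraries.

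The Delta genes were low in all sorted groups. Dll1 was at 2.53 and 2.91 CPM in Msx1+ against 5.91 and 6.45 CPM in Msx1- cells of day 8 (log2 change -1.18 ± 0.17, adjusted p = 2.46e-05). At day 16 it was at 2.50 and 2.53 CPM against 5.32 and 5.66 CPM (log2 change -1.13 ± 0.17, adjusted p = 3.99e-05). Dll1 was therefore lower in each Msx1+ library by a like amount at both days, and the difference between the days was 0.05 with a 95% confidence interval of -0.46 to 0.56. Dll3 ran from 1.40 to 3.29 CPM over the 8 sorted libraries. Its change between Msx1+ and Msx1- cells was not called at day 8 (log2 change -0.29, 95% confidence interval -0.78 to 0.20) or at day 16 (-0.30, -0.81 to 0.22).

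Of the receptors, Notch3 fell in the Dlx2 EBs and all 3 were higher in Msx1+ than in Msx1- cells at day 16. At day 2, Notch3 was at 66.0 and 68.6 CPM with Dlx2 against 115 and 120.4 CPM with GFP (log2 change -0.81 ± 0.05, adjusted p = 9.56e-12). Notch1, the receptor known best from blood and neural progenitors, was at 41.4 and 43.1 CPM against 37.9 and 37.5 CPM, and its log2 change of 0.16 was not called (95% confidence interval 0.01 to 0.31, adjusted p = 0.0532). Notch2 was at 57.3 and 51.0 CPM against 48.9 and 49.7 CPM, a log2 change of 0.14 that was not called either (-0.01 to 0.28, adjusted p = 0.0979). Both lay above GFP in each library, and both were called under scaling by library size (0.34 and 0.31) and with a stricter filter (0.22 and 0.20). Notch1 was also called without a filter (0.17), and Notch2 when Dlx2 replicate 2 was left out (0.22, adjusted p = 0.0246).

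Notch2 showed the largest difference of the receptors across the sort. It was at 113 and 142 CPM in Msx1+ against 59.8 and 53.4 CPM in Msx1- cells of day 8, 2.26-fold (log2 change 1.17 ± 0.14, adjusted p = 9.84e-05). At day 16 it was at 210.3 and 182 CPM against 52.6 and 63.4 CPM, 3.37-fold (log2 change 1.75 ± 0.14, adjusted p = 6.13e-06). The Msx1- levels of both days overlapped, while those of Msx1+ cells did not.

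Notch3 was at 140.5 and 169 CPM in Msx1+ against 121 and 114 CPM in Msx1- cells of day 8 (log2 change 0.40 ± 0.09, adjusted p = 0.00229), and at 288 and 248 CPM against 139 and 152 CPM at day 16 (0.88 ± 0.09, adjusted p = 2.38e-06). Its day-8 Msx1+ range overlapped the Msx1- range of day 16. Notch1 was at 56.7 and 73.4 CPM in Msx1+ against 65.5 and 64.3 CPM in Msx1- cells of day 8, with Msx1- lying between the Msx1+ libraries. Its log2 change there was 0.00 with a 95% confidence interval of -0.26 to 0.27, and the sign turned in several settings. At day 16 Notch1 was at 88.4 and 77.2 CPM against 48.2 and 56.1 CPM (log2 change 0.66 ± 0.12, adjusted p = 0.000566).

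Per kilobase, the sum of the 3 receptor genes was 61.4 and 52.9 CPM per kb in Msx1+ cells of day 16. It was 31.9 and 39.3 in Msx1+ cells of day 8, and between 23.5 and 28.6 in the 4 Msx1- libraries. Notch3 held the largest share in every library, from 49.8% in a Dlx2 EB library to 67.6% in an Msx1- library of day 16. The shares depend on the merged exon lengths, which were 14232 bases for Notch1, 10782 for Notch2 and 8089 for Notch3. The ratio of Notch3 to Notch2 per kilobase was 1.54 to 1.83 in the 6 libraries of Dlx2 EBs and Msx1+ cells and 2.69 to 3.53 in the 8 others, with the libraries labelled ES among the latter.

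The annotation places genes over exons of 4 members. An antisense gene over 867 bases of Dll1, A930024N18Rik, is listed in neither table. Those over Notch1 (0610009E02Rik and Gm13568) and Notch3 (Gm17276) lie on the opposite strand and had at most 36 counts in a library, and Gm42820, on the strand of Notch2, at most 28. The library kit does not mark strand, so that reads of antisense genes cannot be told apart from those of the members.

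The 3 targets split at day 2 and rose together in Msx1+ cells. Hes1, a repressor that follows Notch activity in many tissues but also answers to other signals, was at 18.9 and 20.2 CPM in Dlx2 EBs against 24.3 and 27.4 CPM in GFP EBs (log2 change -0.41 ± 0.09, adjusted p = 0.000376). Hey1, a repressor of the heart, vessels and skeleton, was at 3.74 and 4.28 CPM against 2.92 and 2.59 CPM (log2 change 0.54 ± 0.20, adjusted p = 0.0229). Heyl, its relative in smooth muscle, was at 0.97 and 1.01 CPM against 0.24 and 0.40 CPM, from 78 counts over the Dlx2 EBs and 16 over the GFP EBs (log2 change 1.60 ± 0.47, adjusted p = 0.00506). The calls on both Hey genes depended on single libraries. Hey1 was not called without Dlx2 replicate 1 (adjusted p = 0.0539), Dlx2 replicate 2 (0.187) or GFP replicate 2 (0.0884), nor by DESeq2 (0.115). Heyl was not called without Dlx2 replicate 1 (adjusted p = 0.0576) or Dlx2 replicate 2 (0.0592).

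Heyl and Hey1 had the largest differences of the 10 genes between Msx1+ and Msx1- cells of day 8. Heyl was at 2.85 and 2.80 CPM in Msx1+ against 0.45 and 0.30 CPM in Msx1- cells of day 8, 7.44-fold (log2 change 2.89 ± 0.29, adjusted p = 6.95e-07). At day 16 it was at 3.94 and 3.27 CPM against 0.61 and 0.49 CPM, 6.55-fold (2.71 ± 0.28, adjusted p = 6.44e-07). Hey1 was at 12.5 and 11.7 CPM against 3.34 CPM in both Msx1- libraries of day 8, 3.62-fold (1.85 ± 0.13, adjusted p = 1.54e-08). At day 16 it was at 9.04 and 9.20 CPM against 4.55 and 4.66 CPM, 1.98-fold (0.98 ± 0.13, adjusted p = 8.78e-06). For each of them every Msx1+ library exceeded every Msx1- library of either day.

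Hes1 differed by less. It was at 38.0 and 35.3 CPM in Msx1+ against 28.3 and 30.2 CPM in Msx1- cells of day 8 (log2 change 0.32 ± 0.07, adjusted p = 0.00158) and at 48.3 and 50.9 CPM against 31.2 and 31.8 CPM at day 16 (0.65 ± 0.07, adjusted p = 1.82e-06). The day-8 call was lost without Msx1- replicate 1 (0.24, adjusted p = 0.0516). Per kilobase, Hey1 stood at 0.205 and 0.207 of the Hes1 level in Msx1+ cells of day 8 and at 0.069 to 0.117 of it in the other 6 sorted libraries.

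**Figure D3:**
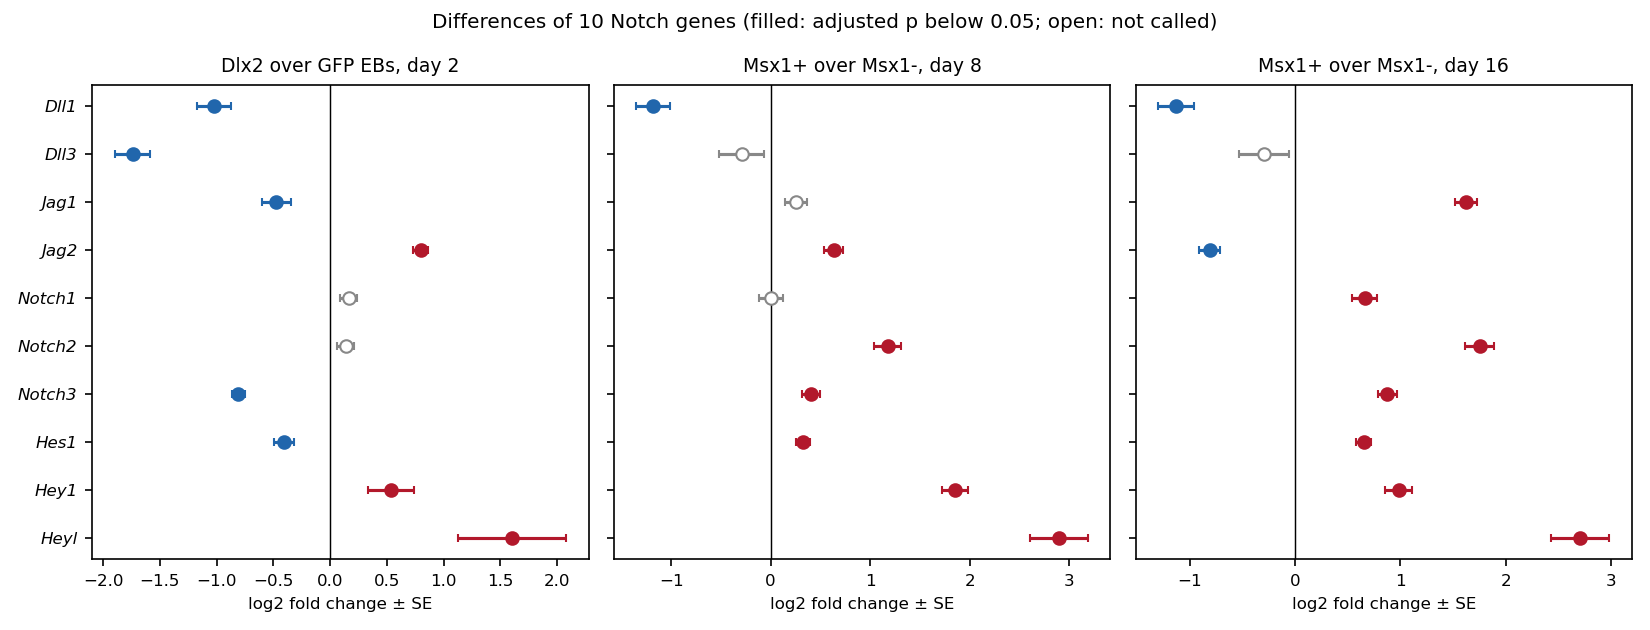
Log2 fold change ± SE of each gene for Dlx2 over GFP EBs at day 2 and for Msx1+ over Msx1- cells at days 8 and 16, from edgeR with 2 libraries a group. Filled points are called at an adjusted p under 0.05 (red higher, blue lower) and open points are not. Jag2 lies at 0.63 at day 8 and at -0.81 at day 16, and Dll1 below -1.0 in all 3 comparisons.

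Whether the Msx1 effect itself changed with time was tested as a difference of differences, which called 6 of the 10 genes, 4 higher and 2 lower, beside 28.6% of all genes (10.3% higher, 18.3% lower). Scaling by library totals moved the share of higher among all called genes from 35.9% to 15.5%. The effect was larger at day 16 for Jag1, Notch1 (0.66 ± 0.17, adjusted p = 0.0131), Notch3 (0.47 ± 0.13, adjusted p = 0.0149) and Hes1 (0.33 ± 0.10, adjusted p = 0.0272), and smaller for Jag2 and Hey1 (-0.87 ± 0.18, adjusted p = 0.00213). For Notch2 it was 0.58 with a 95% confidence interval of 0.14 to 1.02 (adjusted p = 0.0537), a value called under 7 of the alternatives, among them without Msx1+ replicate 2 of day 8 (0.76, adjusted p = 0.0044) and without Msx1- replicate 2 of day 16 (0.72, adjusted p = 0.0197). Calls on 3 of the 6 rested on single libraries. That on Notch1 was lost without Msx1- replicate 1 of day 8 (adjusted p = 0.0548) or Msx1+ replicate 1 of day 16 (0.0582). That on Notch3 was lost without either of these (0.0614 and 0.0638), without Msx1- replicate 1 of day 16 (0.0597) and with library size scaling (0.29, adjusted p = 0.0924). Hes1 was lost without any of 5 libraries, namely Msx1+ or Msx1- replicate 2 of day 8 (0.0894 and 0.0975), Msx1+ replicate 2 of day 16 (0.0925) and Msx1- replicate 1 or 2 of day 16 (0.0719 and 0.0593), and with library size scaling (0.14, adjusted p = 0.353).

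Within Msx1+ cells, 7 of the 10 genes differed between day 16 and day 8, beside 45.9% of all genes (21.1% higher, 24.8% lower, and the share of higher among the called fell from 46.0% to 34.7% with library totals). Jag1 rose by a log2 change of 1.64 ± 0.11 (adjusted p = 9.68e-09) while Jag2 changed by -1.63 ± 0.10 (adjusted p = 5.24e-09). Notch3 (0.79), Notch2 (0.62), Hes1 (0.44) and Notch1 (0.34) were higher at day 16 and Hey1 (-0.41) was lower. The call on Notch1 was lost without Msx1+ replicate 1 of day 8 (adjusted p = 0.182) or of day 16 (0.229) and with library totals (0.106), and that on Hey1 without the same libraries (0.0894 and 0.0651). Dll1, Dll3 and Heyl were not called, with Dll3 at -0.59 (95% confidence interval -1.09 to -0.08, adjusted p = 0.0548). Dll3 was called under scaling by library size (-0.70, adjusted p = 0.0232) and with the libraries labelled ES in the fit (-0.59, adjusted p = 0.0462). Without Msx1+ replicate 1 of day 16 its log2 change came to -0.85.

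Within Msx1- cells, 2 of the 10 genes were called between the days, beside 37.6% of all genes (19.7% higher, 17.8% lower, and the share of higher among the called went from 52.5% to 62.9% with library totals). These were Hey1 (0.46 ± 0.13, adjusted p = 0.0139) and Notch3 (0.31 ± 0.09, adjusted p = 0.0169), both higher at day 16. Without Msx1- replicate 1 or 2 of day 8, neither was called (0.0713 and 0.0653 for Hey1, 0.0674 and 0.159 for Notch3). Without Msx1- replicate 2 of day 16 both were lost (0.0645 and 0.129) and Notch1 was called as lower (-0.43, adjusted p = 0.0411). Notch1 was also called as lower by DESeq2 (-0.33, adjusted p = 0.0155) and without a filter (-0.32, adjusted p = 0.000121). Jag1 was called as higher with library totals (0.34, adjusted p = 0.0219) and with the stricter filter (0.29, adjusted p = 0.0435). The comparisons of days share their libraries with those of the sort.

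Against the libraries labelled ES, which already held Dlx2 transcripts, 9 of the 10 genes were called in Msx1+ cells of day 16, 7 higher and 2 lower, where 71.0% of 22504 genes were called (37.3% higher, 33.7% lower). In those of day 8, 6 were higher and 1 lower, where 61.5% were called (34.6% higher, 26.9% lower). In Msx1- cells, 5 were higher and 2 lower at day 16 (53.0% of all genes, 28.5% higher and 24.5% lower), and 3 were higher and 2 lower at day 8 (33.6%, 19.0% higher and 14.5% lower). These 4 comparisons share the same 2 control libraries. With library totals, the share of higher among all called genes went from 56.2% to 65.8% in Msx1+ and from 56.7% to 61.9% in Msx1- cells of day 8. At day 16 it went from 52.5% to 54.9% and from 53.8% to 62.4%. Jag1 (0.30, adjusted p = 0.0275) and Notch1 (0.40, adjusted p = 0.00691) then became called as higher in Msx1+ cells of day 8, and Hes1 (0.24, adjusted p = 0.0133) in Msx1- cells of day 16. Heyl had 4 and 17 counts in the libraries labelled ES, 0.077 and 0.333 CPM, against 2.80 to 3.94 CPM in the 4 Msx1+ libraries (log2 change 3.78 ± 0.42 at day 8 and 4.13 ± 0.42 at day 16). Hey1 was at 2.66 and 1.74 CPM in the libraries labelled ES, below every sorted library. Notch2, at 43.1 and 39.9 CPM there, was also below every sorted library, and its log2 change reached 2.24 ± 0.13 in Msx1+ cells of day 16. Dll3, at 5.23 and 4.57 CPM in the libraries labelled ES, was above every sorted library, with log2 changes from -0.67 to -1.54 that were called in all 4 groups. Dll1, at 2.80 and 2.51 CPM, overlapped both Msx1+ groups and lay below both Msx1- groups (1.22 ± 0.18 at day 8 and 1.05 ± 0.18 at day 16).

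The weakest of these comparisons was that of Msx1- cells of day 8, where the count of 5 members came to 2 without replicate 1 of the libraries labelled ES and to 1 and 3 without Msx1- replicate 1 and 2. The call on Dll1 held with any library left out, and the other 4 did not. Dll3 was not called without replicate 1 of the libraries labelled ES (adjusted p = 0.151) or Msx1- replicate 1 (0.0683) or 2 (0.164), and Jag2 not without replicate 1 of either (0.0837 and 0.0807). Hey1 was not called without replicate 2 of the libraries labelled ES (0.228) or Msx1- replicate 1 (0.0673) or 2 (0.0649), and Notch2 not without replicate 1 or 2 of the libraries labelled ES (0.0822 and 0.165) or Msx1- replicate 1 (0.15). Heyl became called without replicate 2 of the libraries labelled ES (2.27, adjusted p = 0.0132). In Msx1+ cells of day 8 the call on Jag2 (0.27, adjusted p = 0.0215) was lost without replicate 2 of the libraries labelled ES (0.181) or Msx1+ replicate 2 (0.272) and by DESeq2 (0.0546), and Notch1 became called without Msx1+ replicate 1 (0.40, adjusted p = 0.00121). In Msx1- cells of day 16, Notch2 (0.48, adjusted p = 0.0122) was lost without replicate 2 of the libraries labelled ES (0.0945) or Msx1- replicate 2 (0.0712), and Heyl (1.41, adjusted p = 0.0175) without replicate 1 of the former (0.208) or replicate 1 of the latter (0.0769).

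In the order of levels among the 5 groups of that table, several neighbours overlapped. For Jag1, Msx1+ cells of day 16 stood apart at the top and the other 4 groups overlapped one another in turn. Jag2 ran from Msx1+ cells of day 8 through the libraries labelled ES, Msx1- cells of day 8 and of day 16 to Msx1+ cells of day 16, with no overlap between neighbours. For Notch2 the order was Msx1+ of day 16, Msx1+ of day 8, then both Msx1- groups, which overlapped, and the libraries labelled ES. Hey1 had no overlap between neighbours in the order Msx1+ of day 8, Msx1+ of day 16, Msx1- of day 16, Msx1- of day 8 and libraries labelled ES.

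The rest of the pathway was followed in a list of 41 other Notch genes, of which 40 were tested at day 2 and 39 at days 8 and 16. With Dlx2 at day 2, 14 were higher and 12 lower, with a median log2 change of -0.01, where 67.2% of all genes were called (34.1% higher, 33.0% lower). In Msx1+ cells of day 8, 18 were higher and 9 lower, where 54.7% of all genes were called (30.4% higher, 24.3% lower). At day 16, 19 were higher and 11 lower, where 62.1% were called (31.1% higher, 31.0% lower). The median log2 change of the list was 0.30 at both days, beside 0.06 and -0.02 over all genes. Between the days in Msx1+ cells 17 were higher and 10 lower at day 16, where 45.9% of all genes were called (21.1% higher, 24.8% lower).

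Glycosyltransferases of the Fringe family, which tune the receptors' answer to Delta and Jagged ligands, changed in unlike directions. Lfng was at 1.38 and 1.68 CPM in Dlx2 EBs against 4.99 and 6.10 CPM in GFP EBs (log2 change -1.86), but was higher in Msx1+ cells, at 8.86 and 9.15 CPM against 2.65 and 2.21 CPM in Msx1- cells of day 16 (1.89) and by 0.87 at day 8. Mfng was lower in all 3 comparisons (-1.50, -1.10 and -2.82), and stood at 1.0 and 0.717 CPM in Msx1+ against 6.04 and 6.10 CPM in Msx1- cells of day 16. Poglut1, which adds glucose to the receptors, was lower with Dlx2 at day 2 (-1.50).

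Rbpj, the pathway's DNA-binding protein, was at 187 and 181 CPM in Dlx2 EBs against 429.8 and 402 CPM in GFP EBs (log2 change -1.18). It was also lower in Msx1+ cells of day 8 (-0.86) and of day 16 (-0.997). Its coactivators went up in Msx1+ cells, Maml3 at day 8 by 2.30, from 4.65 and 4.69 CPM to 21.6 and 24.5 CPM, and Maml2 at day 16 by 2.68, from 4.43 and 4.04 CPM to 26.4 and 28.0 CPM. Notch4, the endothelial receptor, was lower in Msx1+ cells at both days (-1.75 and -2.36), as was Dtx1, a ubiquitin ligase of the pathway (-1.41 and -2.01).

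Dlk1, a Delta-like protein that lacks the usual receptor-binding domain, was at 174 and 192 CPM in Dlx2 EBs and at 6.62 and 5.66 CPM in GFP EBs (log2 change 4.90 ± 0.08). In the table of the later stages it had 0 counts in both libraries labelled ES and in all 4 Msx1- libraries, and at most 20 counts in an Msx1+ library, so that it was not tested there. Its relative Dlk2 was called higher in Dlx2 EBs (1.36) and in Msx1+ cells of day 8 (2.13) and day 16 (2.94), with 7.11 and 6.0 CPM in Msx1+ against 1.05 and 0.654 CPM in Msx1- cells of day 16. The day-2 call on Dlk2 was lost without GFP replicate 1 (0.56, adjusted p = 0.30), without Dlx2 replicate 2 (0.218) and by DESeq2 (0.0949).

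Among other target genes, Hes5, of neural progenitors, had 19 counts in each Dlx2 EB library and 1 and 4 in the GFP EBs (log2 change 2.22) and at most 10 counts in any later library. Its call was lost without Dlx2 replicate 1 (adjusted p = 0.0861), Dlx2 replicate 2 (0.159) or GFP replicate 1 (0.126), and by DESeq2 (0.0733). Hey2 was called at day 2 (1.27) and not between Msx1+ and Msx1- cells (-0.03 at day 8 and 0.60 at day 16). Nrarp, a target that feeds back on the pathway, was not called at day 2 (0.07) or day 8 (-0.75) and was lower in Msx1+ cells of day 16 (-0.84, adjusted p = 0.0459), a call lost without Msx1+ replicate 1 (0.235) or Msx1- replicate 2 (0.394) of that day and by DESeq2 (0.0625). Hey2 was called at day 16 when either of these libraries was left out (0.94 and 0.92). Hes7, the oscillator of the segmenting mesoderm, was called higher in Msx1+ cells of day 8 (2.15) from 20 and 46 counts against 9 and 0. That call was lost without Msx1+ replicate 1 (adjusted p = 0.0548), Msx1+ replicate 2 (0.178) or Msx1- replicate 2 (0.223) of day 8, by DESeq2 (0.0506), under RLE scaling (0.0516) and with the libraries labelled ES in the fit (0.0576).

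The Msx1 effect itself differed between the days for 9 pathway genes in the direction of higher and 6 of lower at day 16, of 39, where 28.6% of all genes were called (10.3% higher, 18.3% lower, a balance that library totals moved as given above). Maml2 (1.41), Lfng (1.01) and Numbl (0.67), a relative of the Notch inhibitor Numb, had the largest gains. Mfng (-1.72), Maml3 (-1.18) and the receptor protease gene Adam10 (-0.85) had the largest losses. Within Msx1+ cells, Dlk2 (2.78), Lfng (1.58) and Hey2 (1.49) were higher at day 16 and Mfng (-2.04), Dtx1 (-1.54), Notch4 (-1.54) and Rbpj (-0.63) were lower. Within Msx1- cells 12 were higher and 9 lower, where 37.6% of all genes were called (19.7% higher, 17.8% lower). These were led by Dlk2 (1.97), Maml3 (1.90) and Adam10 (1.184) on one side and Dtx1 (-0.95), Notch4 (-0.93) and Rbpj (-0.50) on the other. Lfng (0.57) and Hey2 (0.85) were called there too, and both calls were lost without Msx1- replicate 1 (adjusted p = 0.0968 and 0.0616) or replicate 2 (0.145 and 0.23) of day 8. That on Lfng was also lost without Msx1- replicate 1 of day 16 (0.224) and that on Hey2 without Msx1- replicate 2 of day 16 (0.32).

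Against the libraries labelled ES, Maml3 was higher in all 4 sorted groups, by 4.98 in Msx1+ and 2.68 in Msx1- cells of day 8 and by 5.71 and 4.57 at day 16. Its level in the libraries labelled ES was 0.521 and 0.941 CPM. Mfng was lower in all 4 (-2.18, -1.08, -4.21 and -1.40 in the same order), from 15.3 and 16.7 CPM. Rbpj was lower in Msx1+ cells of day 8 (-0.30, not called with library totals, adjusted p = 0.0595) and day 16 (-0.93), higher in Msx1- cells of day 8 (0.56) and not called in those of day 16 (0.07). Over the 39 genes, 19 were higher and 11 lower in Msx1+ cells of day 8 (61.5% of all genes called) and 14 higher and 6 lower in Msx1- cells of that day (33.6%). At day 16, 22 were higher and 13 lower in Msx1+ cells (71.0%) and 20 higher and 8 lower in Msx1- cells (53.0%).

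**Figure D4:**
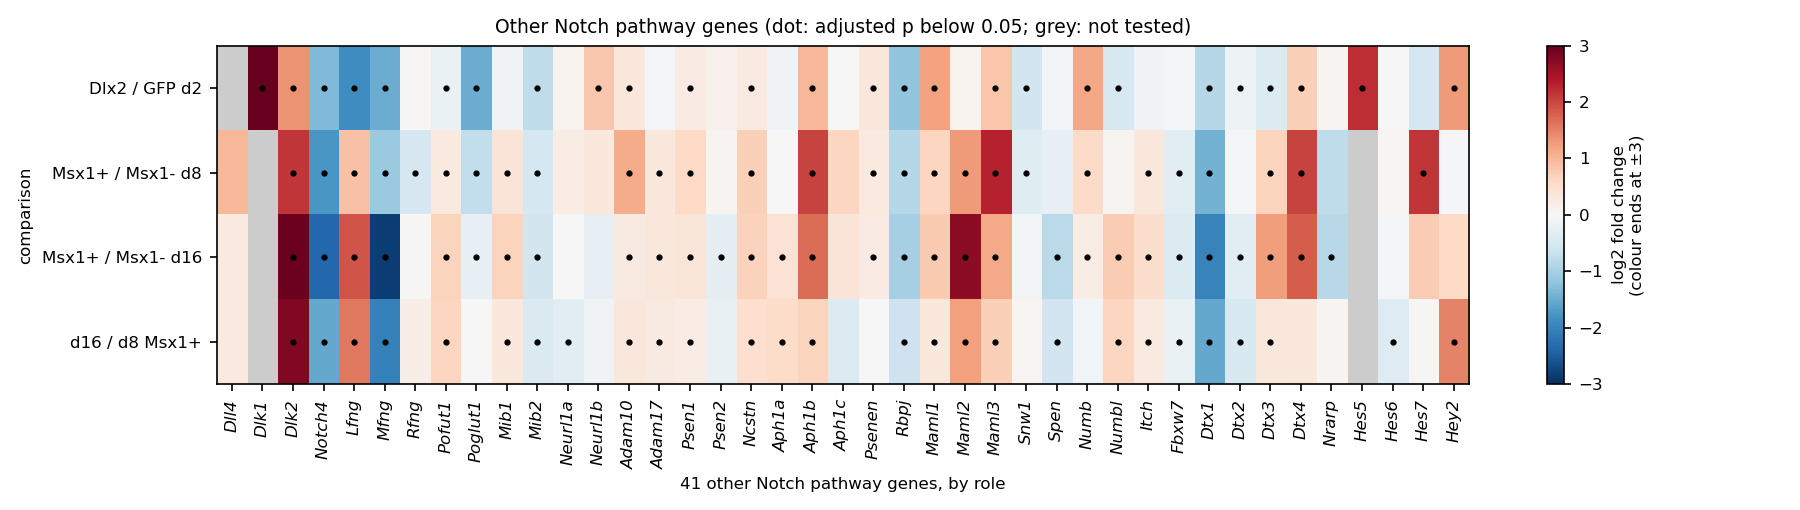
Log2 fold change (colour, ending at ±3) of the 41 other Notch pathway genes in 4 comparisons, with a dot where edgeR's adjusted p was under 0.05 and grey where a gene was not tested. Rbpj, Notch4, Mfng and Dtx1 are lower in all 4 comparisons and Dlk2 is higher in all 4.

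Markers of other cell types moved with the sort and with Dlx2. The summed level of 10 pericyte and smooth muscle markers was 1376 to 1421 CPM in Msx1+ cells of day 16, 159 to 174 CPM in those of day 8, 155 to 158 CPM in Msx1- cells of day 16 and 20.9 to 22.5 CPM in those of day 8. In Msx1+ over Msx1- cells, 7 of the 10 were higher at day 8 and all 10 at day 16, and none was at 0 in a sorted group. The libraries labelled ES had 19.1 to 19.4 CPM with Acta2 at 0, and the EBs 18.0 to 22.8 CPM. The sum, like that of the ectomesenchyme markers below, was thus highest in the group where Jag1, Notch1, Notch2, Notch3, Hes1 and Heyl were highest. Acta2, smooth muscle actin, made up most of it in the day-16 cells, with 973 and 1031 CPM in Msx1+ and 111 CPM in both Msx1- libraries, against 7.43 and 7.63 CPM in Msx1+ cells of day 8. Msx1+ cells of day 8 and Msx1- cells of day 16 had similar sums of unlike make-up. The former held 47.6 and 53.8 CPM of Pdgfrb, 46.8 and 58.4 CPM of Cspg4 and 34.9 and 32.4 CPM of Rgs5, and the latter 9.23 and 10.2, 2.34 and 3.65, and 2.39 and 2.45 CPM. Between these 2 groups Notch2 and Heyl did not overlap, while Jag1 and Notch3 did. The part of such cells in these levels was not tested. Endothelial markers summed to 72.4 to 79.4 CPM in Msx1+ and 313 to 341 CPM in Msx1- cells of day 16, and to 85.1 to 86.8 and 203 to 208 CPM at day 8. Of 9 such markers, 3 were higher and 5 lower in Msx1+ cells of day 16, and 4 were higher and 4 lower at day 8.

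Pluripotency markers, 10 in number, summed to 3786 to 3797 CPM in Msx1- and 1186 to 1245 CPM in Msx1+ cells of day 8, and to 2671 to 2724 and 248.7 to 267.3 CPM at day 16. In EBs they summed to 3174 to 3299.8 CPM with GFP and 1024 to 1043 CPM with Dlx2, and in the libraries labelled ES to 4577 to 4670.1 CPM. All 10 were lower in Msx1+ cells at both days and in Dlx2 EBs, and none was at 0. Neurogenic markers, of which 11 were listed, summed to 296 to 298 CPM in Msx1- and 151 to 153 CPM in Msx1+ cells of day 8, with Neurog2 at 0 in the former, and to 197 to 199 and 66.9 to 77.5 CPM at day 16. In the EBs they summed to 142 to 143 CPM with Dlx2 and 273 to 281 CPM with GFP. Stmn2 and Tubb3 made up most of these sums, and the list went both ways, with 4 of 10 tested markers higher and 5 lower with Dlx2 at day 2, and 2 higher and 5 lower in Msx1+ cells at day 8 and at day 16. Dll1 and Rbpj were lower in Dlx2 EBs and in Msx1+ cells, as were the pluripotency markers. The libraries labelled ES, highest in the pluripotency sum, held 2.80 and 2.51 CPM of Dll1, below both Msx1- groups. Rbpj was at 362 and 358 CPM in them. In Msx1- cells it was at 535 and 530 CPM at day 8 and at 372 and 382 CPM at day 16. The part of either cell type in the levels of Dll1 and Rbpj was not tested. Ectomesenchyme markers, 11 in number and Dlx and Msx genes among them, summed to 592 to 634 CPM in Msx1+ cells of day 8. The sum was 41.3 to 41.5 CPM in Msx1- cells of that day, and 1233 to 1236 against 185 to 198 CPM at day 16. As the list was chosen with earlier results known, these markers are no separate check of the sort. Of these, 10 were higher in Msx1+ cells at day 8 and all 11 at day 16. In EBs they summed to 609 to 611 CPM with Dlx2 and 18.5 to 19.1 CPM with GFP. There, 8 of the 10 tested were higher with Dlx2 and 1 was lower. Prrx2 was at 2.15 and 2.89 CPM with Dlx2 against 4.47 and 5.41 CPM with GFP. Pdgfra (241 and 227 CPM), Dlx1 (202 CPM in both) and Msx2 (116 and 127 CPM) made up most of the sum with Dlx2.

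Visceral and primitive endoderm markers, 7 in number, summed to 27.0 to 27.4 CPM in Dlx2 EBs and 4.18 to 4.52 CPM in GFP EBs, where all 4 that could be tested were higher with Dlx2. In the sorted cells they summed to 37.1 to 40.3 CPM in Msx1+ and 33.6 to 35.6 CPM in Msx1- cells of day 8 (2 higher and 4 lower in Msx1+), and to 109 CPM in both Msx1+ and 312 to 321 CPM in the Msx1- libraries of day 16 (5 of 7 lower in Msx1+). The libraries labelled ES had 5.80 to 5.90 CPM with Ttr at 0. Paraxial mesoderm markers summed to 232 to 261 CPM in Dlx2 EBs and 41.9 to 51.7 CPM in GFP EBs. Of 8 listed, 4 could be tested at day 2, with 2 higher and 1 lower, and Msgn1 was at 0 with GFP. Uncx made up most of the sum with Dlx2, at 224 and 252 CPM against 0.24 and 0.08 CPM with GFP. Tcf15 made up most of the sum with GFP, at 39.3 and 49.0 CPM, and was at 3.56 and 4.17 CPM with Dlx2. In Msx1+ cells 2 of 6 tested markers of this list were higher and 2 lower at day 8, and 1 was higher and 3 lower at day 16. Of the keratinocyte and oral epithelium markers, 2 of 5 were lower with Dlx2 at day 2, 2 of 7 were higher and 2 lower in Msx1+ cells of day 8, and 3 of 7 were lower in those of day 16. The part of these cell types in the levels of the 10 genes was not tested.

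Dlx2 itself stood at 1137 and 1269.8 CPM in Msx1+ and 269 and 272 CPM in Msx1- cells of day 8, and at 288 and 341 CPM in Msx1+ and 131 and 146 CPM in Msx1- cells of day 16. The Dlx2 level of Msx1+ cells was thus lower at day 16, where Jag1 and the receptors were highest, than at day 8, where Jag2 and Hey1 were highest. Within each day the level of Dlx2 and the Msx1 gate cannot be told apart.

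For the 8 members whose group means spanned at least 1 log2 unit over the 10 libraries of the later table, the 3 genes with the most similar profile were found by the root mean square difference of centred log2 CPM. Notch3 was followed most closely, by Frem2 (0.081), Dcbld2 (0.085) and Rap2a (0.087 log2 units), and Notch2 by Pkd1 (0.086), Nlgn2 (0.117) and Robo1 (0.128). The genes nearest to Jag1 were Tspan4 (0.161), Pitpnm2 (0.183) and Selenom (0.195), and those nearest to Jag2 were Camkv (0.145), Nectin4 (0.156) and Nat8l (0.166). Dll1 lay nearest to Ttc12 (0.153), Dll3 to Bop1 (0.136) and Hey1 to Bend6 (0.150). Heyl, the member with the widest span (4.07 log2 units), had no neighbour closer than Dlg2 (0.247). Notch1 and Hes1 spanned 0.67 and 0.79 log2 units and were not matched.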

How the data were processed

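RNA sequencing libraries of mouse cells were analysed from the read counts per gene symbol that the authors deposited in 2 tables, as whole numbers without normalisation. Per the submitters' processing notes, the mouse build was GRCm38 and the tools were HISAT2 2.1.0, fastp 0.20.0 and DESeq2 1.18.1, in no stated order. Which program counted the reads, and on which annotation, is not given in the sources used here. Of 18 labelled samples, 14 libraries in 7 groups of 2 have a column. Each table was fitted on its own with edgeR 4.0.16 in R 4.3.3 (filterByExpr, TMM scaling, robust glmQLFit, glmQLFTest, two-sided), over 18650 genes for 4 EB libraries, 22294 for 8 sorted libraries and 22504 with the libraries labelled ES. Adjusted p-values are Benjamini-Hochberg values over all genes tested. Each SE was back-computed from the log2 change and the F statistic of its test. Levels are CPM with TMM factors, for the later table from the fit of 10 libraries, and levels per kilobase use merged exon lengths of GENCODE vM21. The code recovered large changes seeded into simulated data, in genes of higher counts and with a fixed spread. That check did not cover genes with few counts and set no bar for small changes.

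The 10 genes, the pathway list and the marker lists were chosen with earlier results of these data known. All 10 genes were named. Of the other 41 pathway genes, those named are up to 3 called genes with the largest change in each direction per comparison, and Hes5, Hey2, Nrarp, Lfng and Rbpj. For the comparisons with the libraries labelled ES, the printed genes are Maml3 and Mfng, which were among those 3 in all 4, and Rbpj. Other genes called in all 4 but outside the largest 3 in at least 1 of them are not printed there. Alternatives were RLE and library size scaling, no filter, a filter of at least 1 CPM in 4 libraries, DESeq2 1.42.0, a replicate block, the libraries labelled ES in the fit, and leaving out each library. Samples with the same replicate number did not deviate together (correlations of -0.0465 to 0.0424 over genes).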

Additional observations from a re-analysis of the deposited data

Results flagged for a closer look

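The effect of the Msx1 sort differed between day 16 and day 8 for 6 of the 10 genes by edgeR's interaction test. The differences, day 16 minus day 8 on the log2 scale, were 1.37 for Jag1, -1.44 for Jag2, 0.66 for Notch1, 0.47 for Notch3, 0.33 for Hes1 and -0.87 for Hey1. The same test called 28.6% of all genes, 10.3% higher and 18.3% lower. Those for Jag1, Jag2 and Hey1 were called in every alternative that was run.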

How the results depend on the processing

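Of 1089 values of the 10 genes under the alternatives, 984 kept their direction and their side of the threshold, 48 were no longer called, 34 became called and 23 changed sign, all 23 of them uncalled in the original fit. Counts of called members stayed within 1.5 times of the original in every comparison except where 1 library was left out of the weakest comparisons. Between the days in Msx1- cells the count of 2 then ran from 0 to 2, and for Msx1- cells of day 8 against the libraries labelled ES the count of 5 ran from 1 to 4. Same-numbered samples did not deviate together over genes. No pairing by replicate number was seen, which cannot exclude that same-numbered fractions shared a culture or a sort. With a replicate block 10 of the 10 genes were called at day 2 in place of 8, and the counts of the other 9 comparisons of members were as without it. The block also ended the day-8 call on Hes7 (2.19, adjusted p = 0.0676).

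Signs turned only for small values, given as log2 changes. For Msx1+ over Msx1- cells of day 8, Notch1 went from 0.0049 to -0.049 with RLE scaling, -0.050 by DESeq2, -0.019 with the stricter filter, -0.0019 with the replicate block, and ran from -0.20 to 0.18 with 1 library left out. Hey2 there came to 0.12 under library size scaling and to between -0.24 and 0.16 with 1 library left out. For the difference of effects, Dll3 came to 0.044 with RLE scaling and by DESeq2 and Dll1 to -0.14 under library size scaling. With 1 library left out Dll3 ran from -0.26 to 0.22, Dll1 from -0.046 to 0.16, Heyl from -0.51 to 0.10 and Nrarp from -0.38 to 0.31. Notch2 between the days in Msx1- cells then ran from -0.11 to 0.16. Nrarp ran from -0.21 to 0.34 at day 2, from -0.18 to 0.38 between the days in Msx1+ cells (-0.020 under library size scaling) and from -0.22 to 0.48 in Msx1- cells. Against the libraries labelled ES, leaving out 1 library gave -0.071 to 0.15 for Dll1, -0.059 to 0.27 for Jag1 and -0.26 to 0.026 for Hey2 in Msx1+ cells of day 8. There, library size scaling gave 0.072 for Hey2 and 0.024 for Lfng. In Msx1- cells of day 8 the ranges were -0.022 to 0.077 for Hes1, -0.30 to 0.099 for Hey2 and -0.020 to 0.25 for Nrarp, and in those of day 16 -0.23 to 0.019 for Notch1 and -0.11 to 0.62 for Nrarp. The cause of these changes was not tested. Heyl, Hes5 and Hes7 rest on few counts, which limits the precision of their changes.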
